A study of Drosophila melanogaster with 4 samples.

Results

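Broad H3K27ac domains inside the autosomal arms were taken from the list of enriched regions that the authors made from both ChIP replicates, called the combined list here. A domain was an enriched cluster on 2L, 2R, 3L or 3R, at least 10000 bp wide and with its midpoint more than 2 Mb from both ends of the arm. This rule gave 440 domains, out of 4874 clusters in the same arm interiors and 7474 clusters in the whole combined list. The domains were thus chosen by their measured width in that list, and widths are given as a description.

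The study used ChIP-seq, the sequencing of DNA recovered with an antibody from fixed chromatin, to map acetylation of histone H3 at lysine 27 (H3K27ac) in whole embryos of Drosophila melanogaster. All 4 libraries came from untreated, wild-type Oregon-R embryos (Oregon-R-modENCODE) aged 14 to 16 h, 2 of them immunoprecipitated with an H3K27ac antibody and 2 input chromatin. The files analysed are 3 lists of clusters, the combined list and a list per ChIP replicate, with a value for each cluster. The lists hold no read counts and the depth is unknown. The labels do not say whether the replicates are separate collections of embryos, and their spread may be technical. Positions are on FlyBase release 5 as deposited, and no gene is named at a domain, as no annotation of that release was used here.

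Acetylation of lysine 27 is added by the acetyltransferase CBP, called Nejire in the fly, and marks active enhancers and promoters. The same residue carries methylation at genes silenced by Polycomb group proteins, and a single lysine cannot carry both. Most acetylated sites are short. Long stretches are known from mammals, where dense groups of enhancers near genes of cell identity form them. In late embryos, when muscle, gut, cuticle and the nervous system are maturing, a whole-embryo library is a mixture of many cell types. Acetylation in few cells and weaker acetylation in many cannot be told apart in it.

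The 440 domains were 9.03% of the interior clusters and held 7.52 Mb, or 33.9% of the bases those clusters covered. Widths had a median of 14460 bp and quartiles of 11773.5 and 19706 bp, and the widest reached 67620 bp. Of the domains, 235 were 10 to under 15 kb wide, 105 were 15 to under 20 kb, 67 were 20 to under 30 kb and 33 were 30 kb or more. With a limit of 15000 bp, 205 domains would be left. The narrowest domain lay on 2R from 17770008 to 17780012, with 10004 bp and a value of 0.62. Next came 10022 bp of 3L from 7334824 to 7344846 (value 0.95) and 10042 bp of 2L from 12481424 to 12491466 (value 1.09). Clusters that just missed the limit were 9992 bp of 2L from 14610456 to 14620448 (value 1.05), 9964 bp of 3R from 13649266 to 13659230 (value 0.83) and 9958 bp of 2R from 5593316 to 5603274 (value 1.35). Values on the 2 sides of the limit overlapped.

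The value deposited for a domain is the authors' own, is on an unstated scale and was used to rank and describe domains within a list. In the combined list the domains had a median value of 1.19, with quartiles of 0.95 and 1.46. The 815 interior clusters of 5 to under 10 kb had a median of 0.87, and all 4874 interior clusters had 0.49. A value of at least 1 was found in 313 domains (71.1%), against 16.3% of all interior clusters. Since value rises with width over the interior clusters (Spearman rho 0.83 across 4874 clusters that share the same libraries), a higher value comes with the choice of wide clusters. Among the domains themselves the relation was looser, with a rho of 0.31 across 440 domains. Median values were 1.08 at 10 to under 15 kb, 1.25 at 15 to under 20 kb, 1.33 at 20 to under 30 kb and 1.35 at 30 kb or more.

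**Figure D1:**
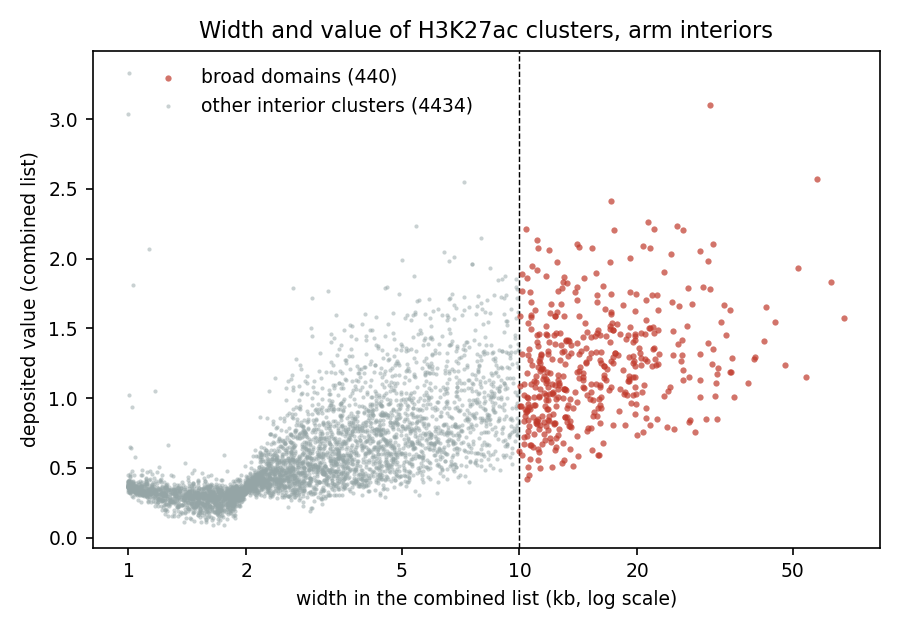
Deposited value against width (log scale) for 440 broad domains and the 4434 other clusters of the arm interiors, with a dashed line at 10 kb. Domains spread from 0.42 to 3.10 in value, and clusters on both sides of the line overlap in value.

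Only 1 of the 5 domains with the highest values was among the widest 3 of its arm. The highest, on 2R from 5426400 to 5457114, was 30.7 kb wide with a value of 3.10 in the combined list. As a mean of its replicate clusters weighted by width, its value was 2.89 in replicate 1 and 3.34 in replicate 2. The domain on 3R from 12030006 to 12087674 came next at 2.57 and was also the widest on its arm. A domain of 17.2 kb on 2L from 2743422 to 2760616 had a value of 2.41 (replicates 2.30 and 2.44). On 3R, 21.3 kb from 4629774 to 4651066 had 2.26 (replicates 2.15 and 2.35), and 25.3 kb from 5160678 to 5185998 had 2.24 (replicates 2.16 and 2.27). Replicate 2 had the higher value in each of these 5 domains.

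All 5 domains with the lowest values lay on 3L and were close to the width limit. The lowest ran from 15187314 to 15197796, 10.5 kb wide with a value of 0.42. Replicate clusters filled 45.6% of it in replicate 1 and 70.7% in replicate 2, as a pair of clusters in each. The domain from 22133136 to 22143698 (10.6 kb, value 0.45) was filled to 45.4% in replicate 1 and 46.2% in replicate 2, with its widest inner break at 3807 bp in replicate 1 and at 2163 bp in replicate 2. The third, from 3998120 to 4009440 (11.3 kb, value 0.50), was filled to 41.7% in replicate 1 and 74.9% in replicate 2. From 2544016 to 2556166 (12.2 kb, value 0.51) the shares were 58.2% in replicate 1 and 77.0% in replicate 2. From 17037384 to 17047878 (10.5 kb, value 0.51) they were 39.4% in replicate 1 and 81.4% in replicate 2. In all 5, replicate 1 filled less of the domain than replicate 2. Over the 440 domains, 5 were filled to under 50% in replicate 1 and 1 of them also in replicate 2, and these 5 had values of 0.42 to 0.58.

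Every domain overlapped clusters of both replicates by at least 1 bp (440 of 440), against 65.6% of all interior clusters and 812 of the 815 clusters of 5 to under 10 kb. As the combined list rests on those replicates, this sharing is a description and no independent support. Replicate clusters filled 92.9% of the summed span of the domains in replicate 1 and 93.8% of it in replicate 2, a mean of 93.3 ± 0.630% (SD, n = 2). For the clusters of 5 to under 10 kb the mean was 87.7 ± 1.52%. At least 90% of the span was filled in both replicates in 274 domains (62.3%), against 22.9% of all interior clusters and 41.2% of those of 5 to under 10 kb. Summed replicate widths per domain had a median of 13.5 kb in replicate 1 and 13.4 kb in replicate 2, a mean of 13.45 ± 0.0226 kb (SD, n = 2). The outer edges mostly lay close together, with a median distance between replicates of 213 bp at the start and 199.5 bp at the end. A few were far apart. Replicate 1 minus replicate 2 ran from -5500 to 11654 bp at the start and from -12453 to 7811 bp at the end.

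A cluster of at least 10000 bp in each replicate list was present in 261 domains (59.3%), against 5.35% of all interior clusters, a count that the width rule largely fixes. These 261 domains had a median width of 17.3 kb and a median value of 1.33. A further 28 domains had such a cluster in replicate 1 alone and 70 in replicate 2 alone. The other 81 had one in neither replicate, and their median width was 11.5 kb and their median value 0.88.

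As deposited, more domains were divided in at least 1 replicate list than were unbroken in both, and merging replicate clusters less than 500 bp apart turned this round. A single cluster in each replicate was found for 183 domains (41.6%), against 53.8% of all interior clusters. Of all interior clusters, many overlap no cluster of a replicate list, and among the 3195 interior clusters found in both the share was 82.1%. For the 812 clusters of 5 to under 10 kb found in both it was 69.8%. In at least 1 replicate, 257 domains (58.4%) were divided into several clusters, against 12.0% of all interior clusters and 30.1% of those of 5 to under 10 kb. After the merging, 32.3% of the domains were divided. The narrower clusters were not counted after merging, so this share cannot be set against the shares before it. In both replicates 118 domains (26.8%) were divided, against 4.06% of all interior clusters and 8.59% of those of 5 to under 10 kb. An interior cluster missing from a replicate list cannot count as divided in it. Replicate 1 alone divided 84 domains and replicate 2 alone divided 55. Replicate 1 divided 202 domains in all (45.9%) and replicate 2 divided 173 (39.3%). Most divided domains consisted of a pair of clusters, 147 in replicate 1 and 133 in replicate 2. Another 43 and 31 had 3 clusters, and 12 and 9 had 4 or more.

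**Figure D2:**
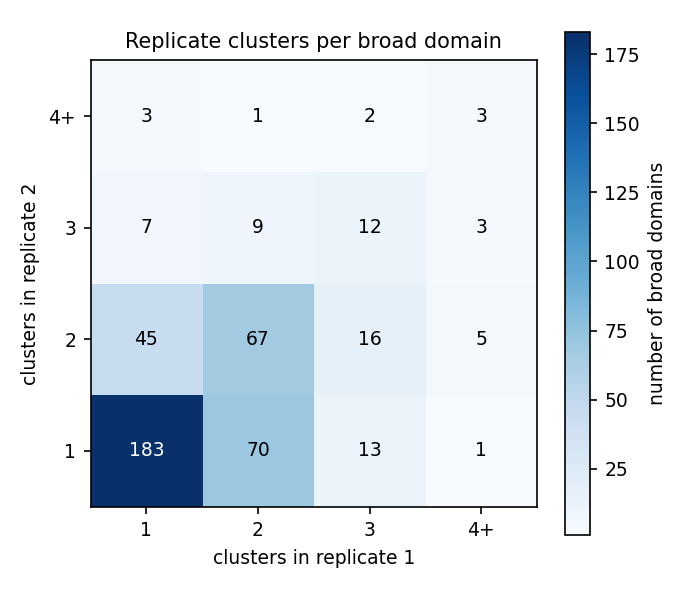
Number of broad domains by the number of clusters that make them up in replicate 1 (horizontal) and replicate 2 (vertical), with 4 or more pooled as 4+. The largest cell, 183 domains, is a single cluster in each replicate, and 67 domains are a pair of clusters in each.

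A wide region has more room for a break, so breaks were also counted per length. Domains had 3.65 breaks per 100 kb of span in replicate 1 and 2.98 per 100 kb in replicate 2, a mean of 3.31 ± 0.470 (SD, n = 2). Clusters of 5 to under 10 kb had 3.08 in replicate 1 and 2.81 per 100 kb in replicate 2, a mean of 2.95 ± 0.188. All interior clusters had 2.21 in replicate 1 and 1.95 per 100 kb in replicate 2, a mean of 2.08 ± 0.182. Many of these are missing from a replicate list and can have no break in it. The domains had more breaks than both sets in each replicate. Their mean differed from that of the clusters of 5 to under 10 kb by less than the SD of the domains. Clusters are not replicates of a condition, and these differences were not tested. By width, breaks per 100 kb came to 3.84 ± 1.05 at 10 to under 15 kb, 3.37 ± 0.0387 at 15 to under 20 kb, 2.65 ± 0.446 at 20 to under 30 kb and 2.88 ± 0.167 at 30 kb or more (SD, n = 2).

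Division went with the value of a domain. Ranked by value and cut into 4 classes of 110 domains, 75 domains (68.2%) of the highest class were a single cluster in each replicate. The share was 50.9% in the next class, 32.7% in the one below and 14.5% in the lowest. Breaks per 100 kb were 1.10 in the highest class in each replicate, and 6.72 ± 1.02 in the lowest (SD, n = 2). The order held within classes of width. At 10 to under 15 kb, 63.6% of the domains at or above the median value of their class and 23.9% of those below it were single in each replicate. The shares were 66.0% and 19.2% at 15 to under 20 kb, 64.7% and 18.2% at 20 to under 30 kb, and 29.4% and 12.5% at 30 kb or more, from 17 and 16 domains. Domains single in each replicate had a median value of 1.40, and those divided in both had 1.00. Ranges overlapped widely, from 0.67 to 2.57 and from 0.42 to 2.26. Value and division come from the same libraries, and no test was made. Shares by value were not counted for narrower clusters, so it is unknown whether this order is particular to the domains.

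Breaks inside domains were mostly short. Replicate 1 had 274 of them with a median length of 415 bp and quartiles of 155.75 and 881.25 bp. Replicate 2 had 224, with a median length of 343 bp and quartiles of 173.25 and 845.5 bp. The shortest was 1 bp in each replicate, and 55.8% of the breaks in replicate 1 and 58.9% in replicate 2 were under 500 bp. With replicate clusters less than 500 bp apart merged, 67.7% of the domains were a single cluster in each replicate. The share of unbroken domains therefore depends on how far apart clusters must lie to be listed separately, and no source used here gives the authors' distance for this.

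Some of the breaks fell in the same place in both lists. In replicate 1, 85 of the 274 breaks (31.0%) overlapped a break of replicate 2 by at least 1 bp, and in replicate 2, 84 of the 224 (37.5%) overlapped a break of replicate 1. Breaks that met were longer, with a median of 719 bp in replicate 1 and of 669 bp in replicate 2. Breaks that overlapped no break of the other replicate had medians of 320 bp in replicate 1 and 245.5 bp in replicate 2. Longer breaks have more room to meet, and no chance rate was computed. Of the 118 domains divided in both replicates, 77 (65.3%) had at least 1 break in common, and 80 were divided into the same number of clusters. Breaks in common were not counted for narrower clusters. These shares therefore have no background beside them and are not shown to be particular to the domains. In divided domains the widest cluster held a median of 68.1% of the covered length in replicate 1 and 69.9% in replicate 2. It held 80% or more in 48 of 202 and 46 of 173 divided domains.

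The most divided domain, on 3L from 19137124 to 19191054, was 53.9 kb wide with a value of 1.15. Replicate 1 had a main cluster of 40.6 kb (value 1.31) and 3 small clusters of 1.84, 3.22 and 2.34 kb towards its right end (values 0.48, 0.74 and 0.58). A break of 3470 bp separated the main cluster from the small ones, and in replicate 2 a break of 3291 bp lay at nearly the same place. Replicate 2 had its main cluster of 33.5 kb (value 1.35) between clusters of 1.49 and 5.73 kb, and clusters of 4.86 and 4.37 kb beyond the long break. In both replicates the clusters beyond the long break had lower values than the main cluster.

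On 3L from 11276008 to 11323918, a domain of 47.9 kb (value 1.24) was 5 clusters in replicate 1 and 4 in replicate 2. Its last cluster had the highest value of the domain in both, 1.45 over 9.08 kb in replicate 1 and 1.73 over 9.21 kb in replicate 2. A short cluster past the middle was low in both, with 0.40 over 1.31 kb in replicate 1 and 0.56 over 2.13 kb in replicate 2. On 3R from 5721124 to 5760950, 39.8 kb with a value of 1.28 was 6 clusters in replicate 1 and 3 in replicate 2, and the longest break measured 1341 bp in the first list and 1706 bp in the second. On 3R from 14909418 to 14938418, 29.0 kb with a value of 1.01 was likewise 6 clusters in replicate 1 and 3 in replicate 2. Here the third cluster of replicate 1, of 6.22 kb, had a value of 1.65, while the other 5 had 0.56 to 0.77. On 3L from 22339794 to 22366912, 27.1 kb with a value of 0.83 was 3 clusters in replicate 1 and 5 in replicate 2, with a main cluster of 17.4 kb in replicate 1 and 15.7 kb in replicate 2.

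**Figure D3:**
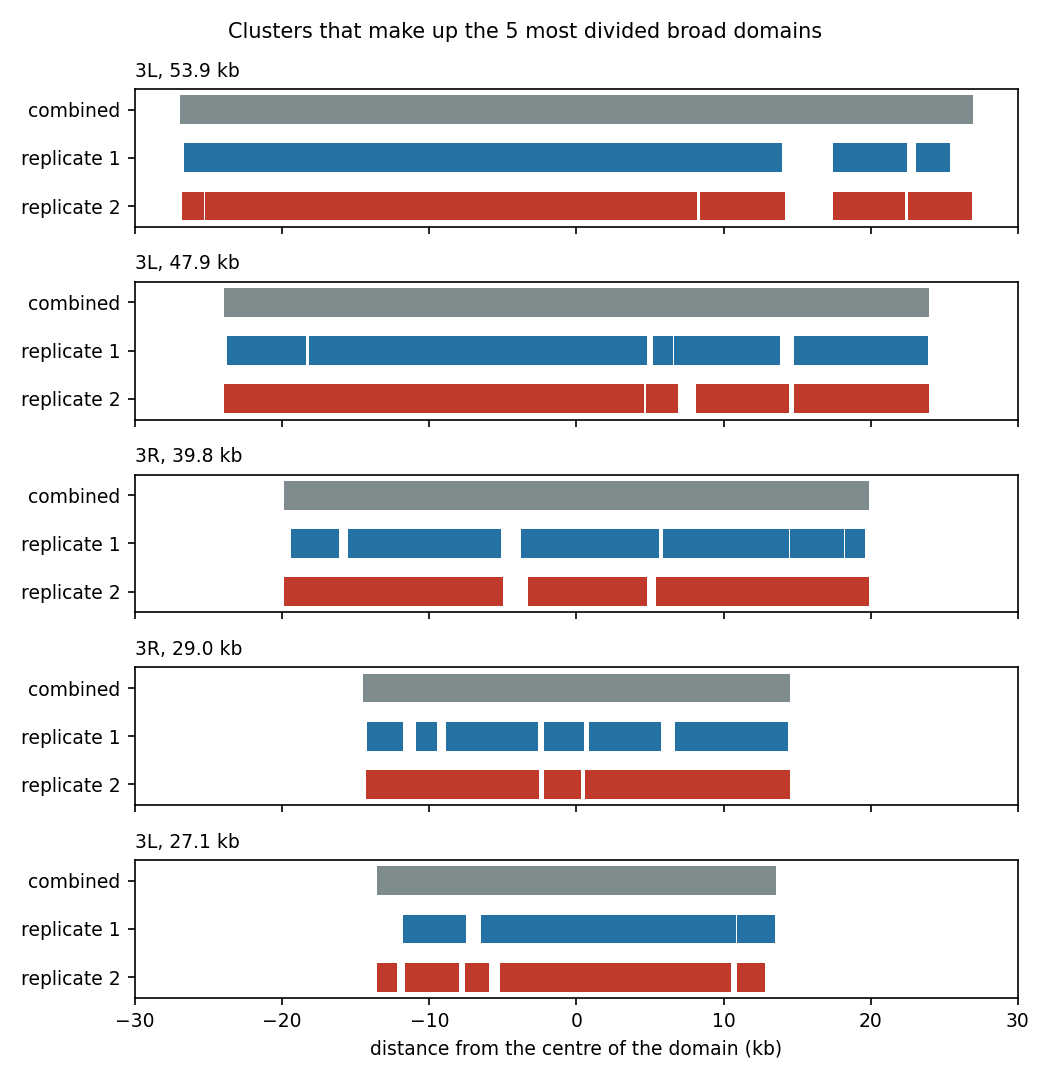
The 5 broad domains with the most replicate clusters, drawn as distance in kb from the centre of the domain, with the combined list in grey, replicate 1 in blue and replicate 2 in red. The long break of 3470 bp in replicate 1 and 3291 bp in replicate 2 stands out in the top domain, and a break of 1 bp between clusters of replicate 1 in the same domain is too narrow to be seen.

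Replicates ranked the domains alike. Across the 183 domains that were a single cluster in each replicate, the values of these clusters were related with rho 0.92 (Spearman) and r 0.93 (Pearson). Across all 440 domains rho was 0.93 and r was 0.94. These are descriptions over regions of the same 2 libraries. Replicate 2 had the higher value in 355 of 440 domains (80.7%), against 70.3% of the 3195 interior clusters found in both replicates and 72.2% of those of 5 to under 10 kb. The difference of replicate 2 from replicate 1 had a median of 0.10 with an SD of 0.14 across domains. As the scale and the depth are unknown, no difference in acetylation was read from it. Among the 183 single domains, the clusters had a median width of 13.2 kb in each replicate and a median difference in width, without sign, of 348 bp.

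**Figure D4:**
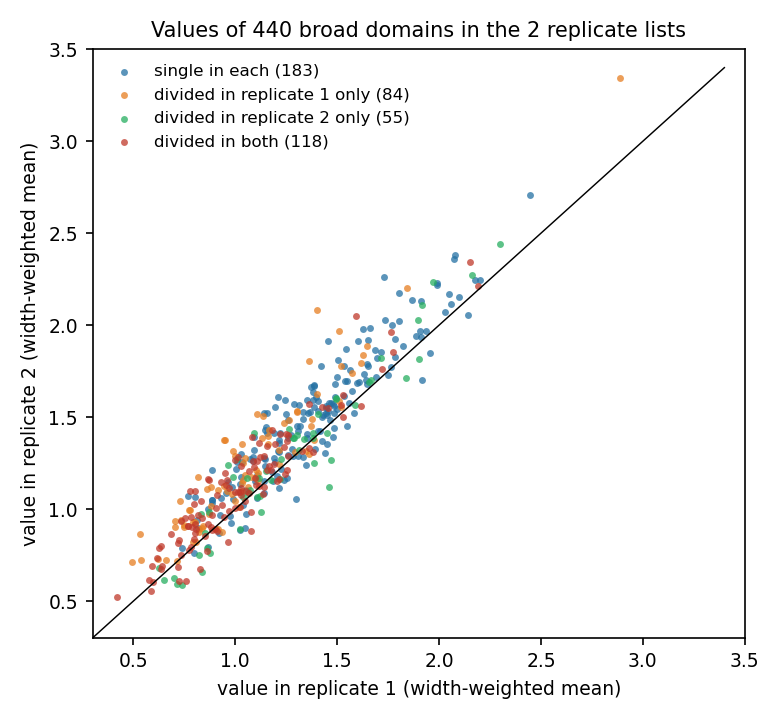
Width-weighted mean value of the clusters in each of 440 broad domains, replicate 2 against replicate 1, coloured by how the domain was divided, with the line of equal values. The points form a narrow band, most of them above the line, and domains divided in both replicates lie mostly in the lower part of it.

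Of the widest 3 domains on each arm, 12 in all, 4 were unbroken in both replicates. On 2L the widest was from 8263246 to 8301574 (38.3 kb, value 1.11), of 3 clusters in replicate 1 and 2 in replicate 2. Next on 2L, 17556228 to 17591266 (35.0 kb, value 1.29) was unbroken in both lists. Its cluster had 35.0 kb and a value of 1.35 in replicate 1, and 34.7 kb and a value of 1.24 in replicate 2. The domain was followed by a gap of 129.4 kb. The third on 2L, from 7500770 to 7535478 (34.7 kb, value 1.19), had 2 clusters in replicate 1 and 3 in replicate 2. On 2R the domain from 6401178 to 6463946 had 2 clusters in each replicate, divided by 82 bp in replicate 1 and by 1515 bp in replicate 2. The domain on 2R from 12687146 to 12738736 was unbroken, at 51.5 kb in each replicate, with values of 1.90 in replicate 1 and 1.97 in replicate 2. The third on 2R, from 16912846 to 16946544 (33.7 kb, value 1.45), was unbroken in replicate 1 and had a break of 324 bp in replicate 2.

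On 3L the widest domain, from 11356662 to 11424282, had 2 clusters in each replicate, with a break of only 14 bp in replicate 1 and one of 135 bp in replicate 2. The domains from 19137124 and from 11276008, described above as the most divided, came next on that arm. On 3R the domain from 12030006 to 12087674 was unbroken in both, and gaps of 658 and 762 bp set it off from its neighbours. The domain on 3R from 14805690 to 14850832 (45.1 kb, value 1.55) was unbroken in replicate 1 and had 3 clusters in replicate 2. The domain on 3R from 9805656 to 9848482 (42.8 kb, value 1.66) was unbroken in both, with values of 1.50 in replicate 1 and 1.81 in replicate 2. The combined value of these 12 domains ranged from 1.11 to 2.57.

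Most domains stood among other clusters. The gap to the next cluster of the combined list had a median of 3190 bp over the 880 sides of the domains, with quartiles of 881.5 and 9197.5 bp. For the clusters of 5 to under 10 kb the median was 3240 bp, and for all interior clusters 3828 bp. Without the combined clusters below the median value of the list, the median gap of the domains was 8326 bp. A gap under 500 bp on at least 1 side was found for 124 domains (28.2%), against 24.1% of all interior clusters and 25.8% of those of 5 to under 10 kb. At the other extreme, 4 domains (0.909%) had more than 20000 bp free on both sides, against 3.28% of all interior clusters. In the 50 kb on either side the covered share had a median of 35.7% for the domains, 33.6% for clusters of 5 to under 10 kb and 32.3% for all interior clusters. These shares lie close together, and as clusters are no replicates the differences were not tested.

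Gaps were unequal on the 2 sides of many domains. The larger was over 10 times the smaller in 138 domains (31.4%), near the 31.2% of all interior clusters. The largest summed gaps were all on 3R. The domain from 24149390 to 24167760 (18.4 kb, value 1.67) had 258.2 kb free on its left and 16.9 kb on its right. The domain from 16077406 to 16093294 (15.9 kb, value 1.49) had 222.8 kb free on its left and 4.54 kb on its right. The domain from 18601768 to 18614344 (12.6 kb, value 1.07) had 9.25 kb free on its left and 209.6 kb on its right. Each stood at the border of a long stretch without clusters, and each was a single cluster in both replicates. The narrowest summed gaps were 70, 98 and 126 bp. The first belonged to 21.2 kb of 3L from 4601006 to 4622160 (value 1.27) and the second to 24.2 kb of 3R from 20413272 to 20437482 (value 1.08). The last belonged to 13.1 kb of 3L from 16145924 to 16159000 (value 1.07). Only the second of these was divided in the replicate lists.

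Along the arms, 332 of the 440 domains (75.5%) had another broad domain less than 100 kb away, measured between facing ends. This was near the background, since 72.5% of all interior clusters and 75.8% of those of 5 to under 10 kb had a broad domain that close. With a width limit of 15000 bp, which leaves fewer domains, 49.3% had another such domain within 100 kb. Neighbouring domains lay a median of 99.3 kb apart, with quartiles of 23.8 and 235.6 kb and 7 clusters between them in the median. The immediate neighbour was itself broad on 102 of 880 sides (11.6%), compared with 9.02% of the sides of all interior clusters. Chains of domains, each less than 100 kb from the next, numbered 114, of which 58 had 2 domains, 28 had 3 and 28 had 4 or more. The other 108 domains stood alone by this measure.

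The chain with the greatest domain length lay on 3L from 11234404 to 11556680. Its 7 domains covered 65.7% of 322.3 kb, with values of 1.13 to 1.74. In it, 3 domains of 47.9, 31.1 and 67.6 kb followed each other with gaps of 1002 and 642 bp and no cluster between. Replicate 1 had 5, 4 and 2 clusters in these and replicate 2 had 4, 2 and 2. A chain of 7 domains on 2R, from 14026596 to 14335122, was looser, with 33.0% of 308.5 kb in domains and values of 0.83 to 1.74. A chain of 6 on 3L from 10655566 to 10865110 had 61.0% of 209.5 kb in domains, with values of 0.84 to 2.03. The named chains on 3L lay within 1 Mb of each other. Some chains with fewer domains were denser on other arms. On 2L from 11178440 to 11251620, 4 domains covered 90.9% of 73.2 kb, and on 3R from 5693690 to 5812600, 4 covered 81.6% of 118.9 kb. In full bins of 1 Mb, the number of domains had a median of 5 and quartiles of 4 and 7 over 79 bins. The fullest bin was on 2R from 5000001 to 6000000, with 11 domains among 74 interior clusters. The only bin without a domain was on 2L from 15000001 to 16000000. That bin held 26 narrower clusters, the fewest interior clusters of any bin.

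In 12 pairs of domains the gap in the combined list was under 500 bp, from 10 to 488 bp. No cluster of replicate 1 spanned any of these gaps, and a replicate 2 cluster spanned 1 of them, the gap of 14 bp on 3L after 10771398. Of all 634 pairs of neighbouring interior clusters under 500 bp apart, 91.0% had a gap spanned in neither replicate, close to the 11 of 12 here. In 14 of the 440 domains (3.18%) a replicate cluster ran on into a further cluster of the combined list, 7 domains in each replicate and none in both, near the 2.52% of all interior clusters. The pair divided by 10 bp, on 3L at 19191054, consisted of the 53.9 kb domain of value 1.15 and one of 15.9 kb with a value of 0.59.

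Density differed between arms. On 2R there were 120 domains, or 7.00 per Mb of interior, on 3L 122 (5.94 per Mb), on 3R 118 (4.94 per Mb) and on 2L 80 (4.21 per Mb). They made up 10.5% of the 1139 interior clusters of 2R and 9.68% of the 1260 of 3L. On 3R they were 8.63% of 1367, and on 2L 7.22% of 1108. The domains covered 11.6% of the interior of 2R, 10.1% of 3L, 8.73% of 3R and 7.10% of 2L. By the same rule in the replicate lists, clusters of at least 10000 bp numbered 5.19 ± 0.577 per Mb on 2R, 3.85 ± 0.710 on 3R, 3.72 ± 0.103 on 3L and 3.16 ± 0.223 on 2L (SD, n = 2). 2R was densest and 2L sparsest in all 3 lists. 3L was above 3R in the combined list and in replicate 1 (3.80 and 3.35 per Mb) and below it in replicate 2 (3.65 and 4.35 per Mb). No test of the arms was made. Domains unbroken in each replicate, given without a background share by arm, were 49.2% on 3R, 45.0% on 2R, 37.5% on 2L and 33.6% on 3L. Median values in the combined list were 1.31 on 3R, 1.28 on 2R, 1.11 on 2L and 1.10 on 3L, nearly equal on 2L and 3L. Domains were spread over the length of each arm, with 45.0% on the centromere side of the midpoint on 2L, 55.8% on 2R, 45.9% on 3L and 50.0% on 3R. For all interior clusters these shares were 45.5, 51.4, 50.1 and 53.4%.

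**Figure D5:**
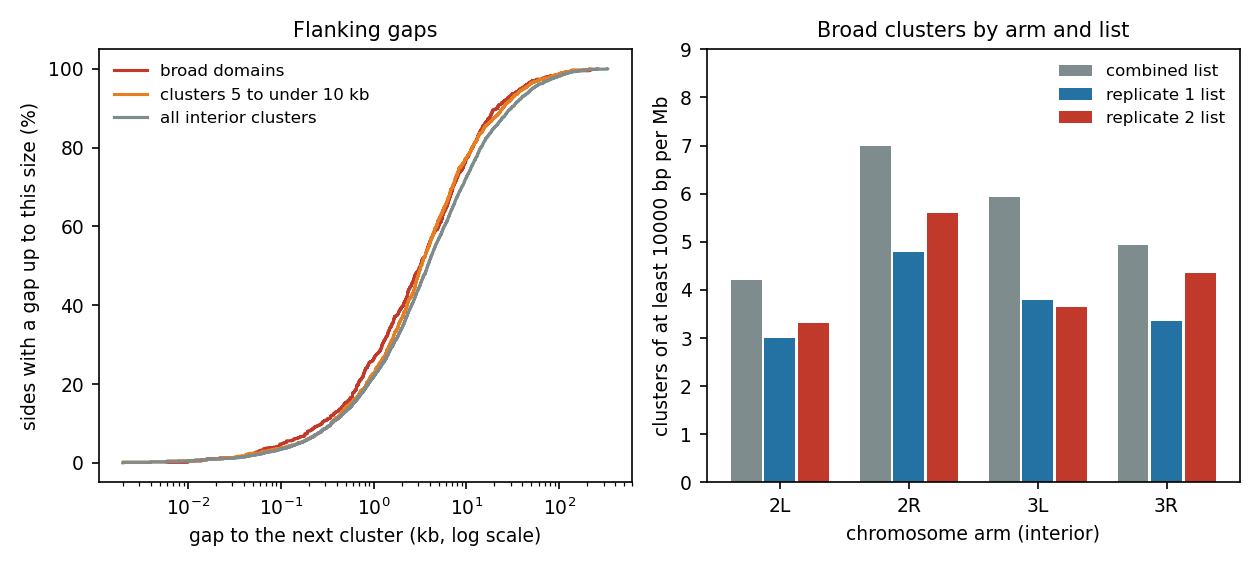
Left, the percentage of sides with a gap to the next combined cluster up to a given size (kb, log scale) for broad domains, clusters of 5 to under 10 kb and all interior clusters. Right, clusters of at least 10000 bp per Mb of arm interior in the combined list and each replicate list; 2R is highest and 2L lowest in each list, and the gap curves run close together.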

How the data were processed

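The submitters' processing notes name Bowtie 0.12.7. No source used here names the caller, its threshold or the way replicates were joined. A score was deposited by the authors for each enriched region, called its value here, on a scale that the file headers do not state. Positions are on FlyBase release 5, per the file headers. Input libraries were not analysed here as lists, so no background in input stands beside the values.

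Width was end minus start, and a gap was the start of a cluster minus the end of the one before. Replicate clusters were assigned to a domain by an overlap of at least 1 bp, and a break is the stretch between neighbouring replicate clusters of a domain. Where a domain had several replicate clusters, its replicate value is their mean weighted by width. Samples were grouped by title. No test was made: the domains were chosen by measured width, and clusters are not replicates of a condition. Background shares are over all interior clusters, and clusters of 5 to under 10 kb are the nearest narrower class. Counts of domains, of those single in each replicate and of those divided were checked on simulated lists. Other measures were not checked in this way.

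Domains and measures were chosen with earlier results of these data known. Named are, by a written rule, the widest 3 domains per arm, the 5 highest and 5 lowest by value, the 5 most divided, the largest 3 chains, the 3 widest and 3 narrowest by summed gaps, and the 3 clusters on either side of the width limit. Chosen after their values were seen were the bins, the near pairs and the breaks that meet. Alternatives changed the width limit, the distance from arm ends, merging, overlap, the value minimum and the replicates used. Tools were Matplotlib 3.10.9, SciPy 1.17.1, pandas 2.3.3, NumPy 2.4.6 and Python 3.11.15.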

Additional observations from a re-analysis of the deposited data

How the results depend on the processing

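Of 65 alternative values, 33 stayed within a set limit and 32 moved. The limit was the spread between replicates, the exact 95% binomial interval or, for the number of domains, 1.5 times the count. The binomial interval treats domains as independent, which regions of the same libraries are not. Unbroken and divided shares mirror each other, so a setting that moves one mostly moves both. The tally is a description and no measure of stability. No paired analysis was possible because the input libraries have no lists analysed here and no result comes from a test. A limit of 15000 bp gave 205 domains, a median value of 1.29, 49.3% within 100 kb of another and 94.8% of the span covered. A limit of 8000 bp gave 48.5% unbroken in each replicate, 51.5% divided, a median value of 1.13, 86.7% within 100 kb and 92.5% covered. Merging combined clusters less than 500 bp apart gave 29.0% unbroken, 71.0% divided, a median value of 1.10, a median gap of 4051 bp, 80.7% within 100 kb and 90.2% covered. Merging replicate clusters gave 67.7% unbroken and 32.3% divided. Combined clusters at or above the median value gave a median gap of 8326 bp, since fewer clusters remain, and 73.5% within 100 kb. More than 4 Mb from arm ends, 74.0% lay within 100 kb. Of the domains, 59.1% lay within 50 kb of another and 91.8% within 200 kb. Only the direction of this change is fixed by construction, and no background share was computed at these distances. Leaving out a replicate gave 54.1 to 60.7% unbroken, 39.3 to 45.9% divided and 92.9 to 93.8% covered. By construction it cannot lower the unbroken share or raise the divided share. The rule applied to a single replicate list gave 297 to 338 domains, median values of 1.31 to 1.39, median gaps of 3987 to 4608 bp and 62.3 to 62.7% within 100 kb. The causes of these shifts were not tested unless named. As the depth is unknown, a break cannot be told from a stretch with too few reads.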

Other observations

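Nearly all wide replicate clusters overlapped a broad domain. As the combined list rests on the same replicates, this is a description and no independent support. The list of replicate 1 had 297 clusters of at least 10000 bp in the arm interiors, and 296 of them overlapped a broad domain of the combined list. The list of replicate 2 had 338, and 337 of them did. The exception in replicate 1 was on 2L from 18475486 to 18487022 (11.5 kb, value 1.03), and that in replicate 2 was on 3R from 22954558 to 22967289 (12.7 kb, value 1.61). Each spanned a pair of narrower clusters in the combined list.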
